A study of Mus musculus with 6 samples.

Results

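Transcripts of 38 genes of the cell division cycle were measured in RNA of the adult mouse optic nerve. They were listed by name, with no measured value in the rule, though earlier results of these data were known when they were chosen. They fall into 9 DNA replication genes, 18 mitosis genes, 8 cyclins and 3 inhibitors of cyclin-dependent kinases. All 38 were found among the 24062 genes of the count files, and all 38 passed the filter on low counts that left 16315 genes for testing. RNA came from 3 control and 3 mutant libraries, each deposited as a separate sample, with no label that ties a library to 1 animal. No control carried Cre; the first was Nf1flox/flox, whereas controls 2 and 3 were Nf1flox/+. The 3 mutant libraries carried PlpCreERT2;Nf1flox/flox, in which a tamoxifen-inducible Cre under the Plp promoter, active in myelin-forming cells, can delete part of Nf1, a gene whose product lowers Ras activity. All animals received tamoxifen when older than 2 months, controls included, and nerves were taken 1 month later. The comparison addresses whether cell cycle transcripts of the nerve differ when Nf1 is targeted in mature oligodendrocytes.

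A dividing cell copies its DNA in S phase and separates it in mitosis, and cyclins bound to cyclin-dependent kinases drive both steps. D-type cyclins act in G1, where they free E2F factors from the retinoblastoma protein, E-type cyclins start S phase, and A- and B-type cyclins act in S phase and mitosis. Inhibitors of the Cip/Kip family bind these kinases. Mature oligodendrocytes do not divide, and in adult white matter the cells that do divide are mainly oligodendrocyte precursors. In RNA of a whole nerve, fewer cells of a type and less RNA per cell cannot be told apart.

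The libraries held 13555756 to 23662698 counts, and the ribosomal RNA precursor Rn45s took 1.73% to 10.9% of them. Nf1 had 337 to 400.0 CPM (counts scaled to a common library size) in controls and 226 to 433 CPM in mutants. These counts cover the whole gene and do not check the deletion. Defining markers of the nerve were abundant in controls, with 13014 to 14348 CPM of Mbp and 1178 to 1376 CPM of the astrocyte gene Gfap. Mutant libraries 1 and 3 stood apart from the rest. The summed CPM of 20 myelin and mature oligodendrocyte markers was 32269 to 33817 in controls, 41577 in mutant library 2, and 7190 and 5978 in mutant libraries 1 and 3. Xist had 3016 CPM in control library 2, 1.41 and 2.87 CPM in the other controls and 2076 to 3611 CPM in the mutants, so high and low Xist occurred among the controls and high Xist alone among the mutants.

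In the control nerve Pcna, the D-type cyclin genes, the inhibitor genes and Tyms had the highest levels of the 38, and the mitosis genes were low. Levels of different genes are compared here as CPM per kilobase of exon, as means over the 3 controls. Pcna, the sliding clamp of replicating DNA polymerase that also serves DNA repair, stood highest at 51.5 CPM per kilobase. The D-type cyclin genes Ccnd1, Ccnd3 and Ccnd2 followed at 28.8, 18.6 and 12.6 CPM per kilobase, with the Cip/Kip inhibitor genes Cdkn1a, which encodes p21, at 16.3, Cdkn1c, which encodes p57, at 11.8 and Cdkn1b, which encodes p27, at 9.80. Control levels of Cdkn1a ran from 23.4 to 39.5 CPM and those of Cdkn1c from 17.4 to 31.3 CPM, so neighbours in the range from Ccnd3 to Cdkn1b lie within the spread of the inhibitor genes. Tyms, the thymidylate synthase gene, was at 10.4 CPM per kilobase.

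The remaining 30 genes stood below the median of all tested genes in at least 1 control, and 29 or 30 of the 38 did so in each control library. That median was 6.85 to 6.91 CPM per kilobase. Among genes of the replicative helicase, Mcm4, Mcm7 and Mcm6 were at 6.78, 6.42 and 4.38 CPM per kilobase, and Mcm3, Mcm2 and Mcm5 at 2.49, 1.76 and 1.34. Rrm2, the small subunit of ribonucleotide reductase, was at 0.887. The median over the 18 mitosis genes was 0.920 to 0.954 CPM per kilobase in the 3 controls. Ube2c, a ubiquitin-conjugating enzyme of the anaphase-promoting complex, was the highest of them at 4.00, and Cdk1, the kinase that drives mitotic entry, was the lowest of all 38 at 0.246. Mki67, which encodes the proliferation antigen Ki-67, was at 1.09 and Top2a, DNA topoisomerase II alpha, at 1.23.

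**Figure D1:**
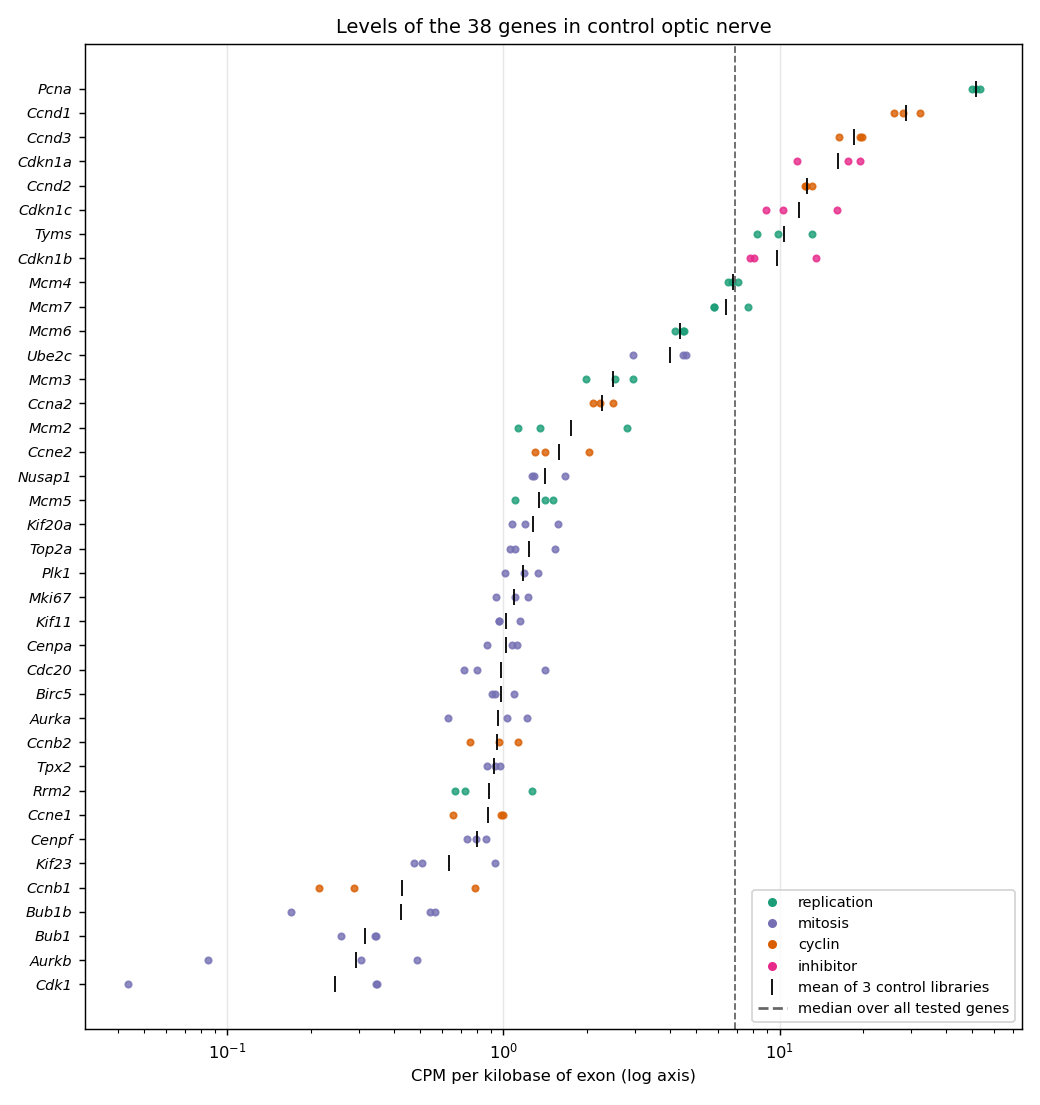
CPM per kilobase of exon (log axis) of the 38 genes in the 3 control libraries, with 1 coloured point per library, a black tick at the mean and a dashed line at the median of all tested genes. Pcna at 51.5, the 3 D-type cyclin genes and the 3 inhibitor genes lie at the top, and most mitosis genes lie near 1.

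The D-type cyclins made up 39.3% to 41.0% of the summed CPM of the 38 genes in controls. The other 5 cyclin genes together had 14.4 to 17.8 CPM in a control library, against 215 to 231 CPM for the 3 D-type genes. Ccna2 was the highest of these 5, with 5.93 to 7.03 CPM in controls, and Ccnb1 had 0.495 to 1.82 CPM. These low levels rest on few reads. For Cdk1 the controls gave 20, 24 and 3 counts, the mutants 4, 13 and 16. Aurkb, Cenpa and Cdc20 had 0 counts in mutant library 3, which allows up to 0.209 CPM there, counting error only.

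Many, but not all, of the promoters examined carry some of the sequence elements by which cell cycle genes are classed. Mitosis genes are known for a CHR element, bound by the DREAM and MuvB complexes, next to CCAAT boxes bound by NF-Y, and replication genes for E2F sites. RefSeq promoter windows on GRCm38.p6, from 250 bases before to 50 after the gene start, matched 29 of the 38 members. Mcm4, Aurkb, Kif20a, Tpx2, Ccna2, Ccnd1, Ccnd2, Ccne2 and Cdkn1c did not match. The upstream stretches of 5 are printed without the bases after the start, to show a promoter with all elements (Cdk1), a replication gene with E2F letters (Mcm6), and the members Bub1b, Ccne1 and Ccnd3 whose values are described further on. Capitals mark CCAAT, the CHR letters TTTGAA, the GC box GGGCGG, and the E2F letters TTTGGCGC, TTTCGCGC, TTTCCCGC or TTTGCCGC, on either strand, overlapping matches included.
Cdk1 (chr10:69352913-69353162, minus strand): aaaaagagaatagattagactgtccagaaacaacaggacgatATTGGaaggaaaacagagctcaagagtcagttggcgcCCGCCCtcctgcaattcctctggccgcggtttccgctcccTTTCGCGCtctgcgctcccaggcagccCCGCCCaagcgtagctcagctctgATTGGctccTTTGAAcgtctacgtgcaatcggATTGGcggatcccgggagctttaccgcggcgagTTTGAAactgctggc
Bub1b (chr2:118597961-118598210, plus strand): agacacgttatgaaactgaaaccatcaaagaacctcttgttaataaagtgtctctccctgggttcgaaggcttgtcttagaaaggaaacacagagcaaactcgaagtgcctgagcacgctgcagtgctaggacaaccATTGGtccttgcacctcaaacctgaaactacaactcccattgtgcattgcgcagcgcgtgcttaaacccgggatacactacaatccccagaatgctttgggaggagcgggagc
Mcm6 (chr1:128359706-128359955, minus strand): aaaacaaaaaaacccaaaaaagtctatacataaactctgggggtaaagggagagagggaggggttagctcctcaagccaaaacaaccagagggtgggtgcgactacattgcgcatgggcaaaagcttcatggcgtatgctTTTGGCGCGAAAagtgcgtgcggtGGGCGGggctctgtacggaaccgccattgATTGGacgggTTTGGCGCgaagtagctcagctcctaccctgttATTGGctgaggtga
Ccne1 (chr7:38107491-38107740, minus strand): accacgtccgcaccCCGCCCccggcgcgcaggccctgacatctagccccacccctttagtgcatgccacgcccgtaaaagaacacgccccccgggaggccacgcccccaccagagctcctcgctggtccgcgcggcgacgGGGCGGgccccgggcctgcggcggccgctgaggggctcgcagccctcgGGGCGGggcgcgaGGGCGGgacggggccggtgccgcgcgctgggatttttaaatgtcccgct
Ccnd3 (chr17:47504801-47505050, plus strand): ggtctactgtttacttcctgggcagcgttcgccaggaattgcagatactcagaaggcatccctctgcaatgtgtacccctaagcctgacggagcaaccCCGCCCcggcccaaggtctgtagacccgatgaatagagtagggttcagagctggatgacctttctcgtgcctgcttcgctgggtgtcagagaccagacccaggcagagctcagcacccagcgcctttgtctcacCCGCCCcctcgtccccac

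Matches to these letters differed by role. The CHR letters were found in 12 of 15 mitosis promoters (80%), 1 of 8 replication promoters and 1 of 4 cyclin promoters, that of Ccnb2, against 18.1% of 27025 promoters of the same length, 1 per gene. E2F letters were found in 4 of 8 replication promoters, those of Mcm3, Mcm5, Mcm6 and Mcm7, and in 1 of 15 mitosis promoters, that of Cdk1, against 2.32% of all promoters. CCAAT was found in 7 of 8 replication and 13 of 15 mitosis promoters, against 37.9%. The GC box was found in 24 of the 29, against 36.1%. Ccnd3, Ccne1, Tyms and Birc5 held the GC box alone, and Nusap1 and Cdkn1a held none of the 4 elements in this window. A match describes letters and not a bound site.

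**Figure D2:**
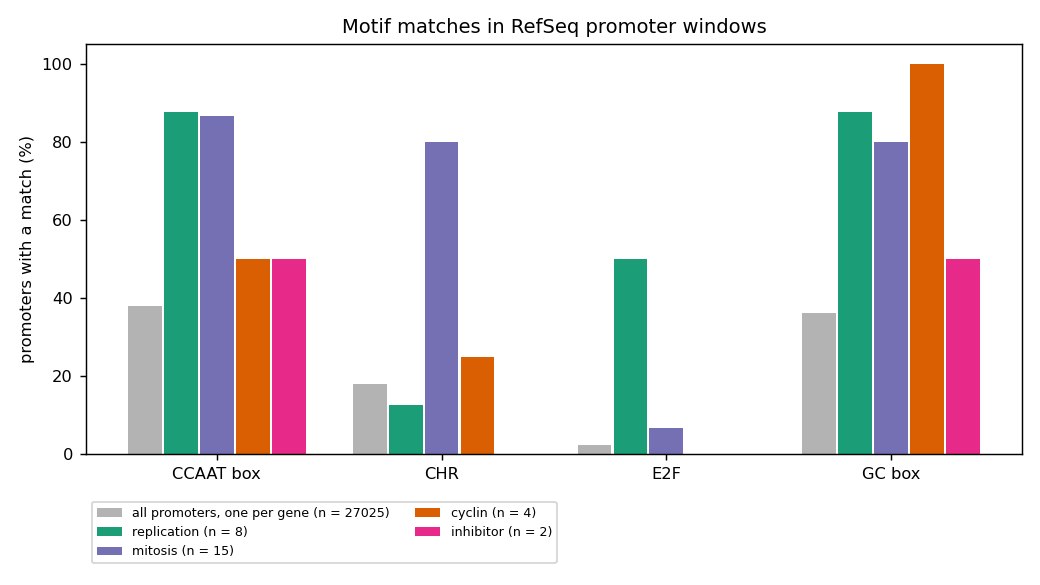
Percent of RefSeq promoter windows with at least 1 match on either strand, for all 27025 promoters (grey) and for the members by role, with the number of promoters in the key. Mitosis promoters stand at 80% for the CHR letters against 18.1% of all promoters, and replication promoters at 50% for E2F letters against 2.32%.

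None of the 38 genes passed the threshold in the comparison of mutant with control nerves, a Benjamini-Hochberg adjusted p under 0.05 by edgeR's quasi-likelihood test over all genes tested. Of the 16315 tested genes 3.29% passed, 2.95% higher and 0.337% lower in mutants. Among the 38, 6 had an unadjusted p under 0.05, where 19.2% of tested genes did. The 6 were Ccne1, Bub1b and Mki67, higher in mutants, and Cdkn1c, Ccnd1 and Ccnd3, lower in mutants. DESeq2, the tool that the series names, called 3 of the 38, Ccne1 and Bub1b higher and Cdkn1c lower, where it called 7.75% of 21361 genes, 5.45% higher and 2.3% lower. Limma-voom with sample weights called 6 of the 38, the same 3 with Ccnd1, Ccnd3 and Cdc20, where it called 24.6% of genes. At an edgeR adjusted p under 0.1 only Ccne1 of the 38 passed, where 6.58% of genes did. The groups did not overlap in 8 of the 38, 3 higher and 5 lower in mutants, against 24% of tested genes (12.5% higher, 11.5% lower). Over the 38 genes 16 log2 fold changes were positive and 22 negative, with a median of -0.08, and the median over all tested genes was -0.00. The counts of calls among the members are thus close to or below those of all genes.

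These counts depended on single libraries. Without mutant library 2 edgeR called 6 of the 38, where it called 27% of 16857 genes, 13.2% higher and 13.8% lower. Ccne1 and Bub1b were higher there, and Ccnd1, Ccnd3, Cdkn1c and Cdc20 were lower. Without any other library 0 of the 38 passed. The members with an unadjusted p under 0.05 by edgeR numbered 11 without mutant library 2, where 6403 of 16857 genes had one. They numbered 3 without mutant library 1 or 3, where 1962 of 16788 and 2502 of 16739 genes had one. They numbered 4 without control library 1 or 2 (2089 of 16660 and 1979 of 16583 genes) and 1 without control library 3 (2407 of 16600 genes). With all 6 libraries 3133 of 16315 genes had one. The genes called among all tested fell from 537 to between 51 and 112 when 1 control was left out, 51 being without control library 1. They fell to 164 or 199 when mutant library 1 or 3 was left out. When Xist level (log2 CPM) entered the edgeR fit, 0 of the 38 passed by edgeR, 0 had an unadjusted p under 0.05, and 0% of all genes passed. The part of sex in these differences was not tested further, since control library 2 was the 1 control with high Xist.

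**Figure D3:**
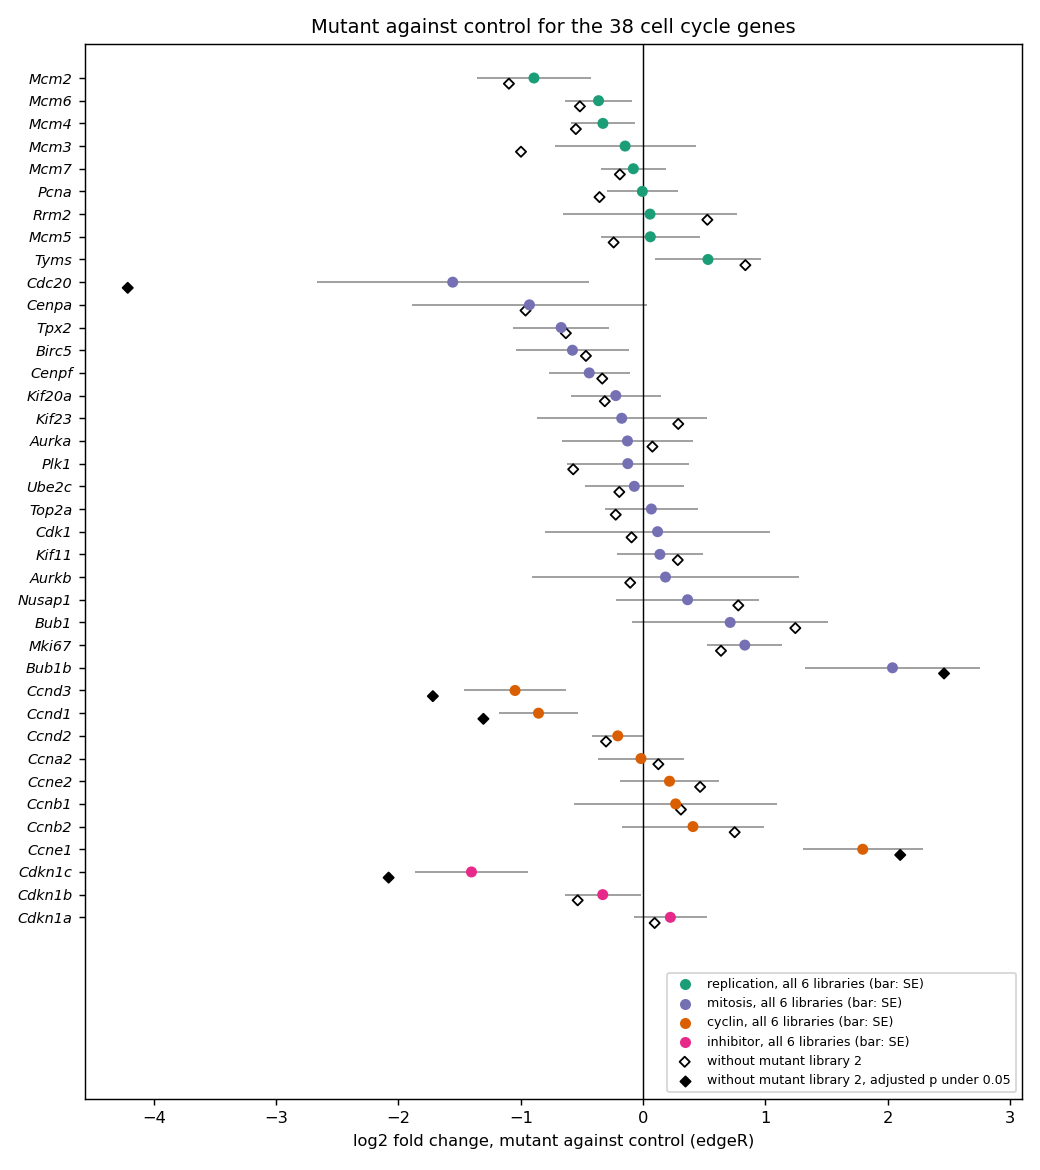
edgeR log2 fold change, mutant against control, for each of the 38 genes by role, with all 6 libraries (coloured points, bars of 1 SE) and without mutant library 2 (diamonds, filled where the adjusted p was under 0.05). The filled diamonds are Ccne1 at 2.10, Bub1b at 2.46, Ccnd1 at -1.31, Ccnd3 at -1.72, Cdkn1c at -2.08 and Cdc20 at -4.21, and most other genes lie near 0.

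None of the 9 replication genes passed by edgeR, DESeq2 or limma-voom, nor by edgeR without mutant library 2, and 0 had an unadjusted p under 0.05 by edgeR. Their summed CPM was 177 ± 15.2 in controls and 182 ± 25.5 in mutants (SD, n = 3 each), with Tyms at 101 CPM in mutant library 3. The median log2 fold change of the 9 genes was -0.08, and -0.36 without mutant library 2. In mutant libraries 1 and 3, 5 and 7 of the 9 lay below all controls, where 37.4% and 39.3% of tested genes did. Of the 9, 3 log2 fold changes were positive and 6 negative, and adjusted p by edgeR was 0.337 to 0.994. The 6 Mcm genes encode the ring of the replicative helicase. Mcm6 had 12.1, 13.1 and 12.9 CPM in control libraries 1, 2 and 3 and 8.74, 11.9 and 8.93 CPM in mutant libraries 1, 2 and 3. It was the only one of the 9 whose groups did not overlap, and its log2 fold change was -0.36 (standard error 0.27; by edgeR, adjusted p 0.509).

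Mcm4 had 25.5, 24.1 and 23.4 CPM in controls and 17.5, 25.1 and 15.6 CPM in mutants, in the same order of libraries (-0.33 ± 0.26 as log2 fold change and SE, with p adjusted by edgeR at 0.532). Mutant libraries 1 and 3 lay below the controls and mutant library 2 among them. Mcm2 had 9.41, 3.82 and 4.56 CPM in controls and 2.91, 4.08 and 2.58 CPM in mutants, and control library 1 set most of its difference (-0.89 ± 0.47 as log2 fold change and SE, with p adjusted by edgeR at 0.337). Without control library 1 that log2 fold change was -0.38. Mcm3 ranged from 5.76 to 8.47 CPM in controls and from 2.02 to 12.4 CPM in mutants, Mcm5 from 3.77 to 5.15 and from 3.35 to 6.65, and Mcm7 from 13.9 to 18.5 and from 12.6 to 16.9.

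Pcna had 67.0, 65.2 and 62.5 CPM in controls and 57.0, 93.0 and 43.9 CPM in mutants. The controls lay within a narrow range and the mutants on both sides of it, with mutant library 2 above and mutant libraries 1 and 3 below, so the log2 fold change was -0.01 (SE 0.29). Tyms had 49.97, 37.4 and 31.7 CPM in controls and 39.7, 30.9 and 101 CPM in mutants, and mutant library 3 alone was high. Its log2 fold change of 0.53 (SE 0.43) was -0.17 without that library. Rrm2 ranged from 1.45 to 2.77 CPM in controls and from 0.453 to 3.56 CPM in mutants. Named pseudogenes of Pcna and Tyms exist, with which they may share reads.

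**Figure D4:**
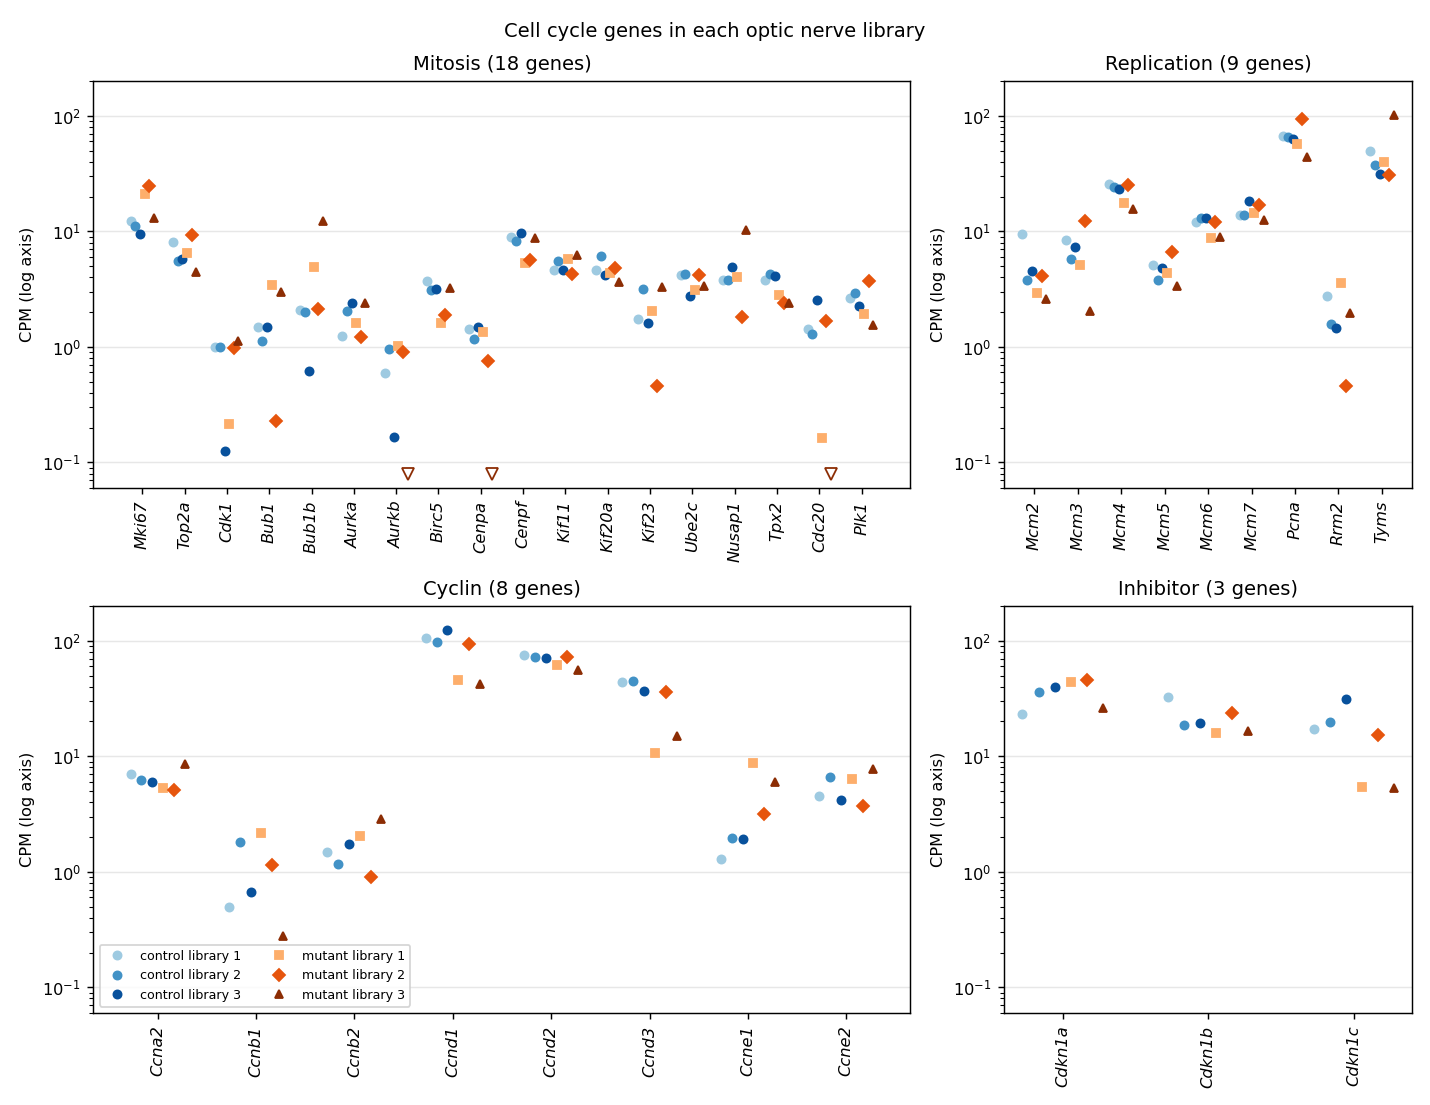
CPM (log axis) of each gene in each of the 6 libraries, in 4 panels by role, with controls as blue circles and mutant libraries 1, 2 and 3 as a square, a diamond and a triangle. Open triangles at the lower edge mark 0 counts (Aurkb, Cenpa and Cdc20 in mutant library 3), and mutant library 2 lies near the controls for Ccnd1, Ccnd3 and Cdkn1c while mutant libraries 1 and 3 lie below.

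Mitosis genes summed to 65.5 ± 3.64 CPM in controls and 73.7 ± 4.38 CPM in mutants (n = 3 each), and the largest gains in mean CPM were those of Mki67 and Bub1b. The median log2 fold change of the 18 genes was -0.10, with 8 positive and 10 negative. Mki67 had 12.4, 11.1 and 9.50 CPM in control libraries 1, 2 and 3 and 21.0, 24.7 and 13.0 CPM in mutant libraries 1, 2 and 3. All 3 mutants lay above all controls, mutant library 3 by little. On the log2 scale the fold change was 0.83 (standard error 0.31; by edgeR, adjusted p 0.187), a 1.78-fold difference. Mki67 was the 1 of the 6 genes with an unadjusted p under 0.05 whose log2 fold change was nearer 0 without mutant library 2, at 0.64.

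Bub1b, which encodes a kinase-like protein of the spindle assembly checkpoint, had 2.08, 1.99 and 0.622 CPM in controls and 4.91, 2.12 and 12.3 CPM in mutants. The groups did not overlap, but control library 1 and mutant library 2 differed by little. The log2 fold change was 2.04 (standard error 0.71; by edgeR, adjusted p 0.169), and 1.18 without mutant library 3 and 1.65 without control library 3. Its partner Bub1 had 1.12 to 1.49 CPM in controls and 3.45, 0.227 and 3.0 CPM in mutant libraries 1, 2 and 3, so mutant library 2 lay below the controls and the other mutants above. Nusap1, a spindle microtubule protein, had 3.76, 3.82 and 4.94 CPM in controls and 4.05, 1.81 and 10.3 CPM in mutants, with the same order of the mutants as for Bub1b. Its exons overlap those of Oip5 on the other strand.

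Tpx2, an activator of the Aurora A kinase on the spindle, had 3.81, 4.23 and 4.07 CPM in controls and 2.81, 2.42 and 2.37 CPM in mutants. All mutants lay below all controls and the spread was small in both groups, yet the value of -0.67 on the log2 scale (SE 0.39) had an edgeR adjusted p of 0.393 with 32 to 102 counts per library. Ube2c had 4.16, 4.27 and 2.74 CPM in controls and 3.13, 4.16 and 3.35 CPM in mutants, and the groups overlapped. Top2a ranged from 5.52 to 8.02 CPM in controls and from 4.47 to 9.30 in mutants. Cenpf, a kinetochore protein gene, ranged from 8.21 to 9.58 CPM in controls and was at 5.34, 5.59 and 8.72 CPM in mutant libraries 1, 2 and 3.

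Cdc20, the activator of the anaphase-promoting complex, had 1.44, 1.29 and 2.53 CPM in controls and 0.162, 1.66 and 0 CPM in mutants. Its counts were 29, 31 and 61 in controls and 3, 22 and 0 in mutants. Its log2 fold change was -1.56 (standard error 1.11; by edgeR, adjusted p 0.485), and -4.21 with an adjusted p of 0.0144 without mutant library 2. With 3 counts over those 2 mutant libraries, that fitted value depends on the prior count. Exons of Cdc20 overlap those of Elovl1 on the other strand.

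The other mitosis genes overlapped between groups. The kinase genes Plk1, Aurka and Aurkb ranged from 2.24 to 2.94, from 1.24 to 2.41 and from 0.166 to 0.954 CPM in controls, and from 1.53 to 3.70, from 1.21 to 2.37 and from 0 to 1.02 CPM in mutants. Birc5, which encodes survivin, ranged from 3.11 to 3.71 CPM in controls and from 1.62 to 3.21 in mutants. Cenpa, the centromeric histone, ranged from 1.16 to 1.49 and from 0 to 1.35. The spindle motor genes Kif11, Kif20a and Kif23 had control means of 4.94, 4.99 and 2.18 CPM and mutant means of 5.43, 4.28 and 1.93 CPM. Cdk1 had means of 0.703 ± 0.501 and 0.772 ± 0.486 CPM (SD, n = 3 each). Exons of Kif20a overlap those of Brd8 and Cdc23 on the other strand.

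Cyclin genes stood on different sides of the controls in mutant libraries 1 and 3. Ccnd1, which encodes cyclin D1 (chromosome 7, 144929931 to 144939925, mm10), had 107, 98.5 and 123 CPM in control libraries 1, 2 and 3 and 45.4, 93.4 and 42.6 CPM in mutant libraries 1, 2 and 3. Mutant library 2 lay just below the lowest control and the other 2 mutants far below. On the log2 scale the fold change was -0.86 (standard error 0.32; by edgeR, adjusted p 0.196), and -1.31 (adjusted p 0.00108) without mutant library 2. Ccnd3, which encodes cyclin D3 (chromosome 17, 47505051 to 47599688, mm10), had 44.2, 44.8 and 37.0 CPM in controls and 10.6, 35.7 and 14.9 CPM in mutants. As for Ccnd1, mutant library 2 was the highest mutant and all mutants lay below all controls, with a log2 fold change of -1.05 (standard error 0.42; by edgeR, adjusted p 0.221), and -1.72 (adjusted p 0.000854) without mutant library 2. Exons of Ccnd3 overlap those of Bysl on the other strand, and exons of Ccnd1 hold the microRNA gene Mir3962.

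Ccnd2, which encodes cyclin D2, had 75.6, 71.8 and 71.2 CPM in controls and 62.0, 71.8 and 55.6 CPM in mutants. The log2 fold change was -0.21 (SE 0.21) with all libraries and -0.30 (edgeR adjusted p 0.301) without mutant library 2, so Ccnd2 passed in neither fit. The D-type share of the summed CPM of the 38 genes was 27.3%, 35.1% and 24.7% in mutant libraries 1, 2 and 3, all below the controls. Whether Ccnd2 differed less than Ccnd1 or Ccnd3 was not tested.

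Ccne1, which encodes cyclin E1 (chromosome 7, 38097984 to 38107490, mm10), had the smallest adjusted p of the 38 genes. It had 1.29, 1.95 and 1.91 CPM in controls and 8.79, 3.17 and 5.93 CPM in mutants, from 26, 47 and 46 counts and 163, 42 and 85 counts. All mutants lay above all controls, and mutant library 2 was the lowest of them. Its log2 fold change was 1.80 (standard error 0.49; by edgeR, adjusted p 0.0888), a 3.47-fold difference, and it stayed between 1.41 and 2.10 with each library left out in turn. The adjusted p was 0.00414 without mutant library 2 and 0.184 to 0.351 without any other library. DESeq2 gave an adjusted p of 0.00812.

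The related Ccne2 overlapped between groups, with 4.19 to 6.55 CPM in controls and 3.70 to 7.74 CPM in mutants. Ccna2, which encodes cyclin A2, had 5.93 to 7.03 and 5.06 to 8.65 CPM, Ccnb2 had 1.16 to 1.74 and 0.907 to 2.86 CPM, and Ccnb1 had 0.495 to 1.82 and 0.279 to 2.16 CPM. Cyclin genes summed to 240 ± 6.59 CPM in controls and 165 ± 42.9 CPM in mutants (n = 3 each), of which the D-type genes were the larger part. Exons of Ccna2 and Ccne2 overlap those of Exosc9 and Ints8 on the other strand.

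None of the 3 Cip/Kip inhibitor genes passed by edgeR, and 1, Cdkn1c, had an unadjusted p under 0.05; whether they differed from each other was not tested. Cdkn1c (chromosome 7, 143458339 to 143461050, mm10), an imprinted gene, had 17.4, 19.9 and 31.3 CPM in control libraries 1, 2 and 3 and 5.45, 15.3 and 5.30 CPM in mutant libraries 1, 2 and 3. All mutants lay below all controls, mutant library 2 by little. On the log2 scale the fold change was -1.40 (standard error 0.46; by edgeR, adjusted p 0.143; DESeq2 adjusted p 0.0348), a 2.65-fold difference, and -2.08 (edgeR adjusted p 0.00112) without mutant library 2. Cdkn1b had 32.5, 18.8 and 19.4 CPM in controls and 15.8, 23.9 and 16.6 CPM in mutants, with control library 1 the highest (-0.33 ± 0.31 as log2 fold change and SE, with p adjusted by edgeR at 0.605). Without control library 1 that value was -0.02. Cdkn1a, a target of p53, had 23.4, 36.0 and 39.5 CPM in controls and 43.7, 45.3 and 26.4 CPM in mutants, and the groups overlapped (0.22 ± 0.30 as log2 fold change and SE, with p adjusted by edgeR at 0.733).

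Several summed cell type markers stood below the controls in mutant libraries 1 and 3, as Ccnd1, Ccnd3 and Cdkn1c did. Summed astrocyte markers did so in mutant library 3 alone, at 5990 CPM against 6287 to 6427 in controls. Slc1a2, 1 of these 12 markers, had 4772 and 3983 CPM in mutant libraries 1 and 3 against 1813 to 2005 in controls. In mutant library 2 Ccnd1, Ccnd3 and Cdkn1c also lay below all controls, as did summed fibroblast, pericyte and Schwann cell markers. Summed precursor, endothelial and microglia markers lay above all controls there, precursors at 2395 against up to 2389 CPM. Single genes weighed on these sums. Slc2a1 had 493 CPM there against 278 to 357 in controls, whereas Flt1, also endothelial, had 78.7 against 96.0 to 111. Bcas1, of the precursor list, had 1357 against 885 to 1203. All mutants lay below all controls for 6 of 12 endothelial and 3 of 17 precursor markers, against 11.5% of tested genes. The mutants lay above for 0 and 1, against 12.5%. Relative to the control mean, Ccnd1 was -1.27, -0.23 and -1.36, Ccnd3 -1.99, -0.24 and -1.50, and Cdkn1c -2.07, -0.58 and -2.11 log2 units in mutant libraries 1, 2 and 3. In the same order the summed level of 17 markers of oligodendrocyte precursors and newly formed cells was -1.18, 0.17 and -1.33, that of 12 endothelial markers -1.17, 0.11 and -1.16, and that of 12 fibroblast markers -2.91, -0.62 and -2.59. Summed CPM of precursor markers was 1892 to 2389 in controls and 847 to 2395 in mutants, of endothelial markers 740 to 779 and 336 to 814, and of fibroblast markers 2720 to 3560 and 429 to 2102. None of these marker genes was at 0 in any library. Markers of microglia summed to 879 to 1122 CPM in controls and 426 to 1139 in mutants, those of pericytes and smooth muscle to 305 to 329 and 115 to 245, and those of Schwann cells to 179 to 219 and 67.0 to 128, with 5 of the 10 Schwann cell markers at 0 in at least 1 library. The part of these cell types in the values of Ccnd1, Ccnd3 and Cdkn1c was not tested.

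Summed neuron and striatal markers stood above the controls in all 3 mutants, as Ccne1, Bub1b and Mki67 did. Summed neuroblast and progenitor markers did so in mutant libraries 1 and 3. Ccne1 stood 2.36, 0.89 and 1.79 and Bub1b 1.65, 0.44 and 2.97 log2 units from the control mean in mutant libraries 1, 2 and 3. Mki67 stood 0.94, 1.17 and 0.24 log2 units from it, highest in mutant library 2, where the neuron sum was the lowest of the mutants. The 16 neuron markers summed to 1604 to 2459 CPM in controls and 9535, 3123 and 8079 CPM in mutants, and 6 of the 16 rose by edgeR, against 2.95% of all tested genes. The 15 striatal projection neuron markers summed to 304 to 358 CPM and to 3067, 2004 and 2200 CPM, and 13 of the 15 rose. Neuroblast and neural progenitor markers, of which 15 were in the files, summed to 224 to 286 CPM and to 574, 275 and 709 CPM, and 4 of 14 tested rose. These lists were chosen with earlier results of these data known, so the counts that rose are no independent test. In the neuroblast and progenitor list 2 of the 15 had 0 counts in at least 1 library. The part of neural tissue in the values of Ccne1, Bub1b and Mki67 was not tested. The 12 astrocyte markers summed to 6287 to 6427 CPM in controls and 5990 to 7702 in mutants, and none of the 12 passed by edgeR. Of the 12, 4 log2 fold changes were positive and 8 negative. Without mutant library 2 edgeR called 1 of the 12 higher and 6 lower, where it called 13.2% and 13.8% of all genes. Gfap had 281, 1200 and 223 CPM in mutant libraries 1, 2 and 3, below the controls in 2 of them. Slc1a2, the glutamate transporter gene, had 1813 to 2005 CPM in controls and 4772, 3214 and 3983 CPM in mutants (adjusted p 0.106 by edgeR and 0.00126 by DESeq2). DESeq2 called 1 of the 12 higher and 2 lower, where it called 5.45% and 2.3% of all genes.

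**Figure D5:**
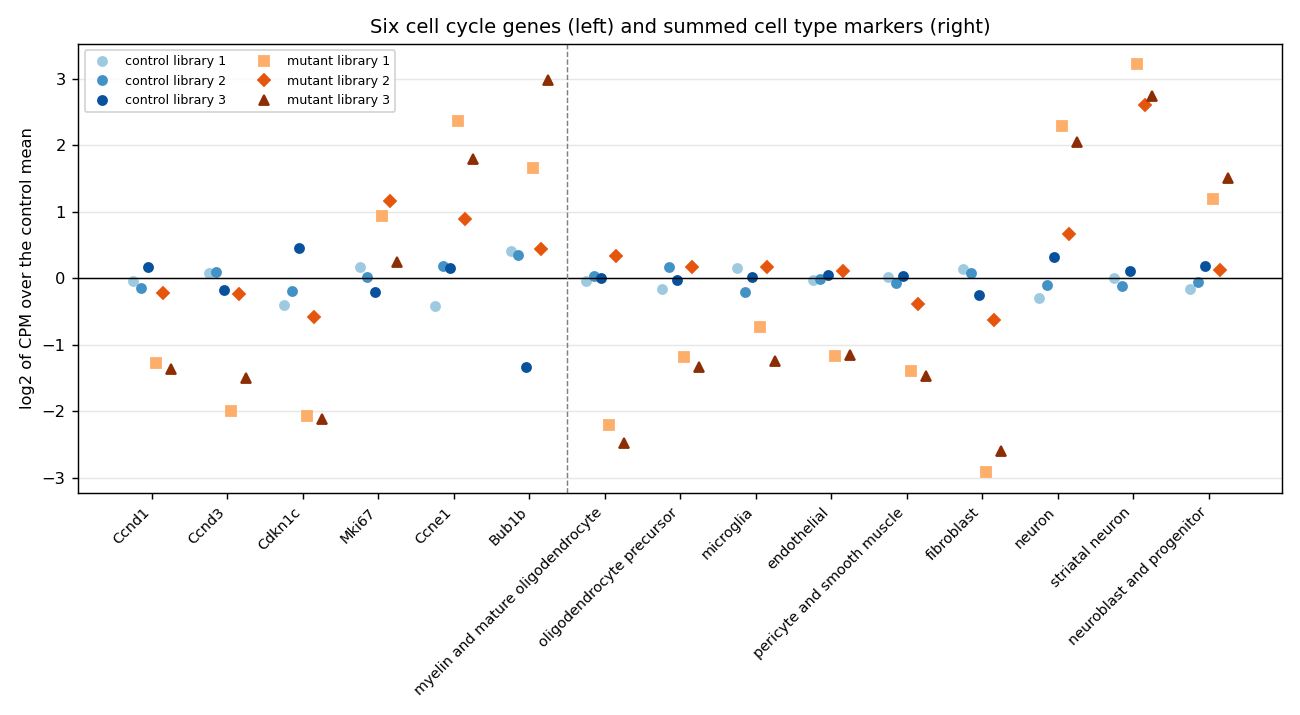
log2 of CPM over the control mean in each library for 6 cell cycle genes (left of the dashed line) and for the summed CPM of 9 marker lists (right). Ccnd1, Ccnd3 and Cdkn1c in mutant libraries 1 and 3 lie between -1.27 and -2.11, on the same side as the myelin, precursor, vessel and fibroblast markers. Ccne1, Bub1b and Mki67 lie above 0 in the mutants, as do the neural markers, but Mki67 is highest in mutant library 2.

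Of 214 other cell cycle genes in lists of the pathway 160 were tested. By edgeR 0 passed, and 11 had an unadjusted p under 0.05, where 19.2% of all tested genes did. DESeq2 called 1 higher and 4 lower, where it called 5.45% of all genes higher and 2.3% lower. Among those were Cit, higher, and E2f2, Tk1 and Pttg1, lower. Limma-voom with sample weights called 5 higher and 5 lower, where it called 12.2% of all genes higher and 12.4% lower. Without mutant library 2 edgeR called 6 higher and 9 lower of 163, where it called 13.2% and 13.8% of all genes. Among those called without mutant library 2 were Ccnh, Cdc7, Cit and Racgap1, higher, and Foxm1, Tk1, Hist1h1c, Hist1h2bc and Pttg1, lower. Of 13 cyclin-dependent kinase and activator genes 12 were tested, and none passed by edgeR. Cdk4, the partner of D-type cyclins, had 31.4 to 37.6 CPM in controls and 24.7 to 28.7 CPM in mutants, with no overlap (log2 fold change -0.33, adjusted p 0.448), and Cdk6 had 2.87 to 4.35 CPM in controls and 2.97, 15.6 and 5.16 CPM in mutants. Ccnh, the cyclin of the CDK-activating kinase, had a log2 fold change of 0.67 and Cks1b -0.92. Of 5 other inhibitor genes 4 were tested and none passed, with log2 fold changes of 0.18 for Cdkn2d, -0.61 for Cdkn2c, -1.38 for Cdkn2b and -1.26 for Cdkn3.

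None of 20 genes of the Rb, E2F and DREAM group passed, with a median log2 fold change of -0.07. E2f2 had 2.13 to 4.07 CPM in controls and 0.605 to 0.863 CPM in mutants, a log2 fold change of -1.89 (standard error 0.54; by edgeR, adjusted p 0.104). Foxm1, a transcription factor of mitosis genes, was at -0.996, while Tfdp1 and E2f3 were at 0.47 each. None of 17 origin licensing and firing genes passed (median -0.08). Cdc7, the kinase that fires origins, had a log2 fold change of 0.85 and Gins4 -0.60, without overlap of the groups, and Mcm10 and Orc5 were at -1.56 and 0.50. None of 28 replication fork and nucleotide genes passed (median -0.19). Tk1, the S phase thymidine kinase, had 4.26 to 9.00 CPM in controls and 1.26 to 3.63 CPM in mutants (-1.57 ± 0.51 as log2 fold change and SE, with p adjusted by edgeR at 0.141).

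Replication-dependent histone genes as a class are transcribed in S phase, and their typical transcripts lack a poly(A) tail. Of the 63 listed, 21 passed the filter and none of those passed the test, 13 had 0 counts in all libraries, and near-identical copies can share reads. Hist1h1c had 3.86 to 7.83 CPM in controls and 1.19 to 3.63 CPM in mutants, and Hist1h2bc 37.4 to 41.9 and 18.5 to 41.9 CPM. The 774 exon bases of Hist1h2bc are spread over chromosome 13, 23684199 to 23692480. Whether reads of these 2 genes came from S phase transcripts was not tested. Of 67 other mitosis genes in the files 58 were tested and none passed, with a median log2 fold change of -0.05 and 5 at an unadjusted p under 0.05, again where 19.2% of all tested genes were. The highest of them was Anln, which encodes anillin and is also abundant in myelin, at 685 to 893 CPM in controls and 164, 740.5 and 128 CPM in mutants. Cit, the citron kinase gene, was at 1.10 and Racgap1 at 0.82 on the log2 fold change scale, both without overlap, and Tacc3 at -0.92.

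Pttg1, which encodes securin, had 2.53, 20.8 and 24.8 CPM in control libraries 1, 2 and 3 and 0.647, 2.12 and 1.26 CPM in mutants. The log2 fold change was -3.60 (standard error 0.82; by edgeR, adjusted p 0.0508), with an adjusted p of 2.1e-05 by DESeq2 and of 0.00602 by edgeR without mutant library 2. The 2 Nf1flox/+ libraries were the high ones, and all 4 Nf1flox/flox libraries, control library 1 among them, were low. Pttg1 and Nf1 both lie on chromosome 11, and what else differs on it between Nf1flox/+ and Nf1flox/flox animals was not tested, so the difference cannot be assigned to the mutant genotype. Of the 38 members, 3 were higher in both Nf1flox/+ libraries than in the other 4 (Mcm6, Tpx2 and Cdkn1c) and 2 were lower (Mki67 and Bub1b), against 7.62% and 7.05% of tested genes. Of 20 p53 targets 19 were tested and 1, Plk2, rose by edgeR, where 2.95% of all tested genes did. It had 16.8 to 25.1 CPM in controls and 164, 48.7 and 66.3 CPM in mutants (2.09 ± 0.45 as log2 fold change and SE, with p adjusted by edgeR at 0.0414). Plk2 is also an activity-induced gene of neurons. Perp, another p53 target, was at -1.26 (adjusted p 0.121), and the median over the 19 was -0.31.

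The spread between libraries was larger in the mutants for most of these genes. The coefficient of variation of CPM was larger over the 3 mutants than over the 3 controls for 32 of the 38 genes, against 74.8% of all tested genes. Its median over the 38 was 19.4% in controls and 38.7% in mutants, and 18.2% and 32.9% over all tested genes. Of the 38 genes, mutant libraries 1, 2 and 3 placed 10, 9 and 12 above all controls and 16, 18 and 20 below, where 36.3%, 29.3% and 36.6% of tested genes lay above and 37.4%, 29.5% and 39.3% below.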

How the data were processed

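Optic nerve RNA was amplified with Ovation v2 reagents before Nextera XT library preparation, per the labels' protocols. The authors deposited raw fragment counts per gene, counted over exons from read pairs, ignoring strand, by featureCounts 1.4.6-p4 with UCSC's mm10 genes, per the file headers. TopHat and DESeq2 are named in the submitters' processing notes. Fragments that touch exons of 2 genes cannot be assigned to 1 of them, and without strand a gene and an overlapping antisense partner cannot be told apart. All 6 libraries come from the same run and lane, per the file headers.

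Library totals were 13555756 to 23662698. No 2 libraries agreed within counting noise (chi-square per degree of freedom at least 39.1). Genes were tested with edgeR 4.0.16 (R 4.3.3), TMM scaling, filterByExpr (minimum count 10), a quasi-likelihood F test with no covariate, and Benjamini-Hochberg adjustment over 16315 genes, with 0.05 as the threshold. SE is the size of the log2 fold change over the square root of F. CPM uses TMM-scaled library sizes. Since no label names separate animals, p-values reflect variation among the 6 libraries only, some of it perhaps technical. Tested on simulated counts of 16147 genes, the mutant against control test recovered 1.49%, 7.46% and 66.7% of genes changed 1.5-fold, 2-fold and 4-fold, and 4 of its 54 calls were false. Every gene and library was simulated with the same dispersion, and no mutant library was set apart from the others. In the real data the spread was larger in the mutants, so these figures need not hold there. Alternatives were other scalings and filters, DESeq2 1.42.0, limma-voom (limma 3.58.1) with sample weights, robust dispersion, an Xist covariate, a threshold of 0.1 and leaving out each library. The members and lists were chosen with earlier results of these data known. All 38 members are named; values in every library are given for the 3 of each role with the smallest p and the 2 with the highest level per length, and for further members chosen after their values were seen. From each further list up to 4 genes with the smallest p are named, and Anln was chosen after its values were seen.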

Additional observations from a re-analysis of the deposited data

How the results depend on the processing

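No paired analysis was possible because the labels give the libraries no shared replicate numbers. The 537 genes that edgeR called became 870 with no filter, 1656 with DESeq2, 4009 with limma-voom and quality weights, 1073 at a threshold of 0.1, 0 with the Xist covariate (1302 at an unadjusted p under 0.05), and 51 to 4551 with each library left out. The 0 members called became 3 with DESeq2, 6 with limma-voom, 1 at a threshold of 0.1 (Ccne1), and 0 to 6 with each library left out. Limma-voom, where 24.6% of genes passed, called Ccnd1, Ccnd3, Ccne1, Bub1b, Cdkn1c and Cdc20. The median log2 fold change of mitosis genes was -0.35 with limma-voom and -0.32 with the Xist covariate, and -0.26 to 0.0161 with each library left out. That of cyclin genes was -0.0904 and -0.17, and -0.0711 to 0.22. That of replication genes was -0.36 to 0.0174 with each library left out. With the Xist covariate the log2 fold change of Pcna was 0.0074. With each library left out it ran from -0.36 to 0.21, that of Nusap1 from -0.50 to 0.78, that of Tyms from -0.17 to 0.84 and that of Ube2c from -0.25 to 0.0485. The causes were not tested. Ccne1, Bub1b, Mki67, Ccnd1, Ccnd3 and Cdkn1c kept their direction in all of these alternatives. They were picked by an unadjusted p under 0.05 in these same data, and their groups did not overlap. Leaving out 1 library could therefore hardly reverse them, and the kept direction is no independent support. The members at an unadjusted p under 0.05 by edgeR numbered 6, and 1 to 11 with each library left out. Over all tested genes that number was 3133, and 1962 to 6403 with each library left out. The median over the mitosis genes of the mean count per library was 60.2, against 373 over all tested genes; power by count level was not tested.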
